A study of Mus musculus with 6 samples.

Results

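The genes described here encode the matrix metalloproteinases (Mmp), the ADAMTS proteinases (Adamts) and the tissue inhibitors of metalloproteinases (Timp). They were taken by symbol from the protein-coding rows of the count table, as Mmp followed by a number, Adamts followed by a number, and *Timp1* to *Timp4*, which gave 23 Mmp, 19 Adamts and 4 Timp genes, 46 of the 43346 genes listed. Their RNA was measured in primary mouse adult fibroblasts (MAFs) grown out of ear tissue, the mice being adult C57BL6/J females, in 3 samples of control cells, which were sham irradiated, and 3 of senescent cells, which were given 20 Gy of X-rays and stayed in culture for a further 21 days. Cells of both groups were kept at 3% oxygen, were used at passages 3 to 8, and had been exposed to 100 nM dexamethasone, a glucocorticoid, for 2 hours before RNA was taken 12 hours later, so both groups share the hormone and each is a single time point. The labels do not say whether samples of a group came from separate animals or cultures, so p-values measure the spread between these samples, which may be technical.

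Matrix metalloproteinases are zinc-dependent enzymes that are made as inactive precursors and, once their propeptide is removed, cleave collagens, proteoglycans, glycoproteins and growth factor carriers outside the cell. ADAMTS proteinases are secreted relatives with thrombospondin repeats that bind them to the matrix, and they trim procollagens or cut large proteoglycans such as aggrecan and versican. TIMPs are small secreted proteins that block the active sites of both families with different preferences. Fibroblasts are a main source of all 3 groups in connective tissue, and secreted metalloproteinases are a known component of what senescent fibroblasts release.

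In senescent cells the Mmp and Adamts families went in different directions gene by gene, with changes of more than 10-fold both ways. *Mmp13* and *Mmp10* each rose 122-fold, from a few counts in each control library, *Mmp3* rose 45.6-fold, *Mmp24* 32.8-fold, *Mmp8* 27.5-fold and *Mmp9* 11.4-fold, while *Adamts16* fell 36.4-fold, *Adamts20* 16.9-fold, *Mmp23* 7.54-fold and *Adamts12* 5.17-fold. The inhibitors *Timp1*, *Timp2* and *Timp3* rose 2.59-, 1.87- and 1.31-fold. Of the 46 genes, 37 had enough counts for a test, and among them 17 were called higher and 18 called lower in senescent cells where a call means an adjusted p under 0.05 (edgeR, quasi-likelihood test, Benjamini-Hochberg over the 17589 genes tested). The same rule called 70.3% of all tested genes, 36.2% as higher and 34.1% as lower, and the median log2 fold change of all tested genes was 0.0085, and the size of each difference is therefore given beside its call. With the threshold of the study's methods, a fold change over 2 with an unadjusted p under 0.05, 13 of the 37 were higher and 7 lower, against 17.8% and 12.3% of all tested genes. In 35 of the 37 the control and senescent values did not overlap, which held for 75.3% of all tested genes.

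The 6 libraries held between 50288454 and 82229553 counts. A count of 0 allows up to 3 counts in a library, or a group mean of 0.0572 CPM in control libraries and 0.0425 in senescent ones, where CPM is the count scaled by edgeR's TMM method to a fixed library total. These floors cover counting error only. Every pair of libraries in a group differed by more than sampling noise, and senescent replicate 3 stood apart from senescent replicates 1 and 2. With 3 samples a group, the smallest p of an exact permutation test is 0.1, so single genes were tested in the fit across all genes. All 4 proliferation genes checked were lower in senescent cells, and *Cdkn1a*, *Cdkn2a* and *Cdkn2b* were higher with *Lmnb1* and *Hmgb2* lower. Of 10 fibroblast markers 6 were lower and 3 higher, and their summed level went from between 19438 and 21543 CPM to between 7742 and 8922 CPM. The sum followed its most abundant genes, *Col1a1*, *Col1a2*, *Col3a1* and *Vim*. The 3 higher markers were *Dcn*, with means of 56.6 and 643 CPM in control and senescent cells, *Thy1* (107 and 298 CPM) and *Lum* (124 and 223 CPM). Of 6 tested endothelial markers 5 were higher and 1, *Erg*, lower, and their sum, from between 81.2 and 85.1 CPM to between 15.6 and 16.5 CPM, followed *Erg*, whose mean went from 80.4 to 7.47 CPM, while that of *Kdr* went from 0.206 to 2.92 CPM. Of 3 tested skeletal muscle markers 1 was higher, with sums from 17.7 to 22.8 CPM and from 17.2 to 30.02 CPM, and *Myod1* and *Pax7* were at 0 in control libraries. Their part in the results was not tested, and markers of other cell types are given beside the genes they bear on. In such bulk samples, fewer cells of a type and less RNA per cell cannot be told apart.

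**Figure D1:**
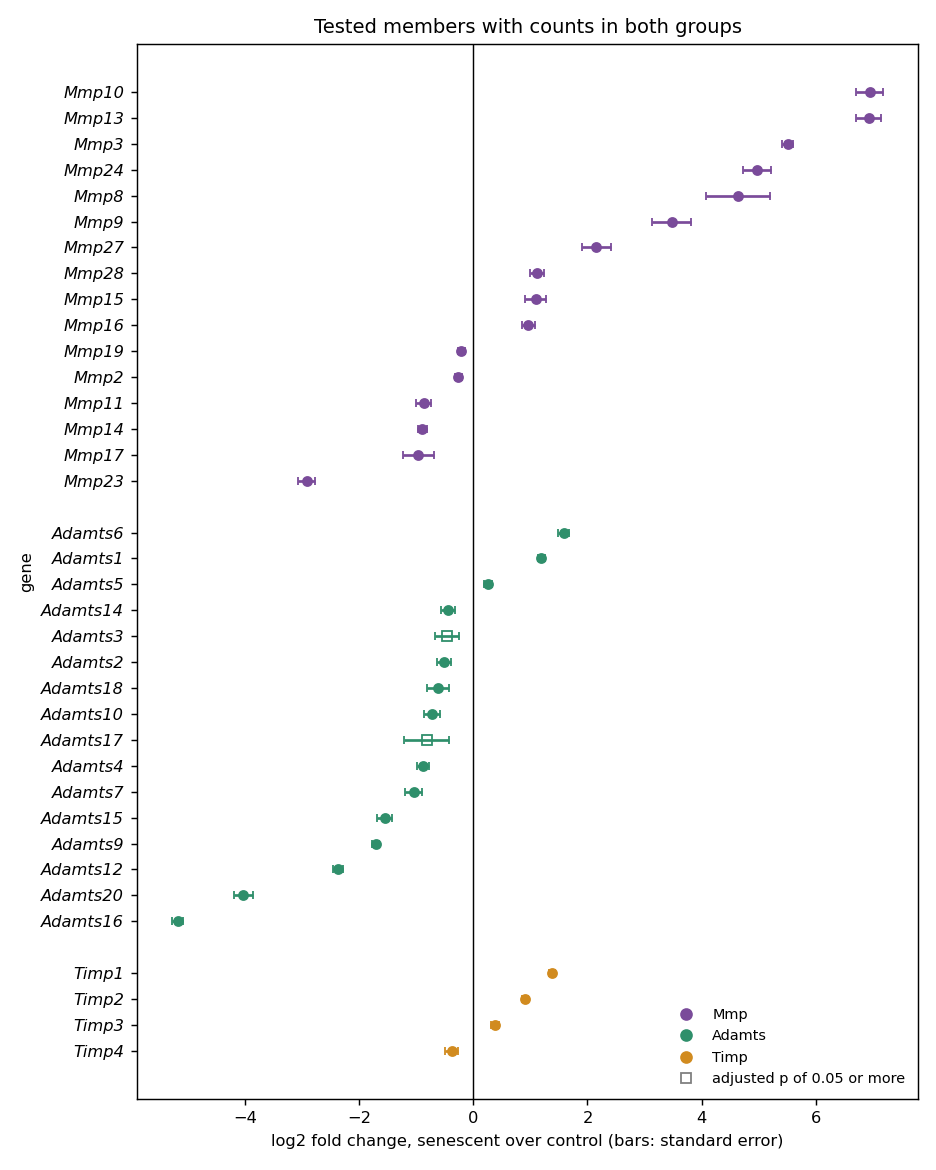
Log2 fold change of senescent over control cells (horizontal axis) for the 36 tested Mmp, Adamts and Timp genes with counts in both groups, with bars for the standard error and open squares for an adjusted p of 0.05 or more. Mmp genes spread from -2.92 to 6.94, Adamts genes reach down to -5.18, and the 4 Timp genes stay between -0.38 and 1.37.

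Among members with counts in every control library, the fitted increase was largest for *Mmp10*, *Mmp13* and *Mmp3*, a collagenase and a pair of stromelysins whose genes lie in 1 cluster. *Mmp13* (ENSMUSG00000050578, chromosome 9 from 7272514 to 7283333 of mm10) encodes the main interstitial collagenase of rodents, which cuts fibrillar collagen through its triple helix. Its counts were 9, 6 and 6 in control replicates 1, 2 and 3, or 0.180, 0.100 and 0.123 CPM, and 837, 1166 and 1628 in senescent replicates 1, 2 and 3, or 15.1, 14.7 and 19.3 CPM. The gene was close to its floor in control cells and well expressed in every senescent library, with a log2 fold change of 6.93 ± 0.22 (SE, adjusted p = 1.05e-07, edgeR). *Mmp10* (ENSMUSG00000047562, chromosome 9 from 7502352 to 7510238), stromelysin-2, had 9, 3 and 4 counts in the control and 683, 969 and 1140 counts in the senescent libraries, which gave 0.180, 0.0502 and 0.0817 CPM against 12.3, 12.2 and 13.5 CPM. The senescent libraries lay within a narrow band and the control libraries held so few reads that the ratio of counts, 126, had a 95% exact interval from 77.6 to 221 for counting error alone. Its fit gave a log2 fold change of 6.94 ± 0.23 (SE, adjusted p = 1.41e-07, edgeR), and without control replicate 1 the log2 fold change was 7.57. Stromelysins cut proteoglycans, fibronectin and several collagens and can activate procollagenases.

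*Mmp3* (ENSMUSG00000043613, chromosome 9 from 7445822 to 7455972), stromelysin-1, differed from *Mmp13* and *Mmp10* in that it was already expressed in control cells. Its level was 10.1, 9.59 and 10.0 CPM in the control replicates and 430.5, 419 and 504 CPM in the senescent replicates, highest in senescent replicate 3. The groups were far apart relative to the spread within either, with a log2 fold change of 5.51 ± 0.10 (SE, adjusted p = 1.24e-08, edgeR). *Mmp8* (ENSMUSG00000005800, chromosome 9 from 7558429 to 7568486), the collagenase that neutrophils store, reached 37, 38 and 74 counts in senescent libraries from 2, 2 and 0 in control libraries, and its 0.668, 0.480 and 0.877 CPM stayed under 1 CPM. The ratio of its counts was 27.0 with a 95% exact interval from 10.3 to 100.2, and the fit gave a log2 fold change of 4.64 ± 0.56 (SE, adjusted p = 0.000146, edgeR). Of 9 neutrophil markers, 1 was tested and was higher, *S100a8*, with a mean of 1.31 CPM in senescent cells. Their summed level went from between 0.100 and 0.225 CPM to between 1.49 and 1.70 CPM. Of the untested markers, *Mpo*, *S100a9*, *Ly6g* and *Cxcr2* were at 0 in every control library and at 3 counts or fewer in every senescent library. The largest counts in control and senescent libraries were 8 and 10 for *Ltf*, 1 and 5 for *Elane*, 2 and 4 for *Camp*, and 1 and 1 for *Csf3r*. The part of such cells in the *Mmp8* values was not tested. *Mmp27*, a stromelysin-like enzyme, had 6, 9 and 6 counts in control and 32, 42 and 57 in senescent libraries, with a log2 fold change of 2.16 ± 0.26 (SE, adjusted p = 0.000134, edgeR). A second protein-coding entry, *AC115689.1*, covers nearly the same span and held 6, 6 and 6 counts against 30, 38 and 47, so the reads of the pair cannot be assigned to either with certainty.

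A group of 10 Mmp genes sits in this cluster on chromosome 9, from 7272514 to 7699585 of mm10, in the order *Mmp13*, *Mmp12*, *Mmp1b*, *Mmp3*, *Mmp1a*, *Mmp10*, *Mmp8*, *Mmp27*, *Mmp20* and *Mmp7*. Within its 427 kb the table lists only 2 other genes, *AC115689.1* and the antisense gene *AV064505*, which had 0 counts. The 5 cluster genes with enough counts for a test were all higher in senescent cells, with log2 fold changes from 2.16 to 6.94. Of these, *Mmp13*, *Mmp10*, *Mmp8* and *Mmp27* had 9 or fewer counts in every control library. They passed the filter through their senescent counts alone, so their tests could hardly come out other than higher. Only *Mmp3* had at least 10 counts in every library. The other 5 genes had too few counts for a test, and all of them had 0 counts in every control library. In the senescent libraries *Mmp12*, the macrophage elastase, had 7, 11 and 21 counts, *Mmp1b* 7, 3 and 7, *Mmp1a* 6, 6 and 2, *Mmp7*, matrilysin, 1, 3 and 1, and *Mmp20*, the enamel enzyme, 4, 0 and 0. The senescent mean was 2.99 times the control floor of 3 counts per library for *Mmp12*, 1.44 times for *Mmp1b* and 1.21 times for *Mmp1a*. These ratios leave out counting error in the senescent counts. Senescent replicate 2 of *Mmp1b* (0.0379 CPM) and senescent replicate 3 of *Mmp1a* (0.0237 CPM) lay under that floor of 0.0572 CPM. A difference in *Mmp7* or *Mmp20* was not detectable at this depth. *Mmp1a* and *Mmp1b* are closely related copies of the rodent collagenase 1 gene, and *Mmp12* and *Mmp1b* share 1261 bases on opposite strands, so their few counts are uncertain. The direct neighbours outside the cluster did not share these sizes. *Dcun1d5* on the near side changed by 0.13 on the log2 scale (adjusted p = 0.182, edgeR). On the far side the nearest gene, the predicted *Gm10709*, changed by -1.44 on the log2 scale (adjusted p = 0.000699, edgeR). Beyond it, *Tmem123* changed by -0.16 (adjusted p = 0.229), followed by *Birc2* at -0.25 and *Birc3* at 0.47 (adjusted p = 0.0417 and 0.000858, all edgeR). Of the 13 Mmp genes elsewhere in the genome, 11 were tested, 5 of them higher and 6 lower, with log2 fold changes from -2.92 to 4.97.

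**Figure D2:**
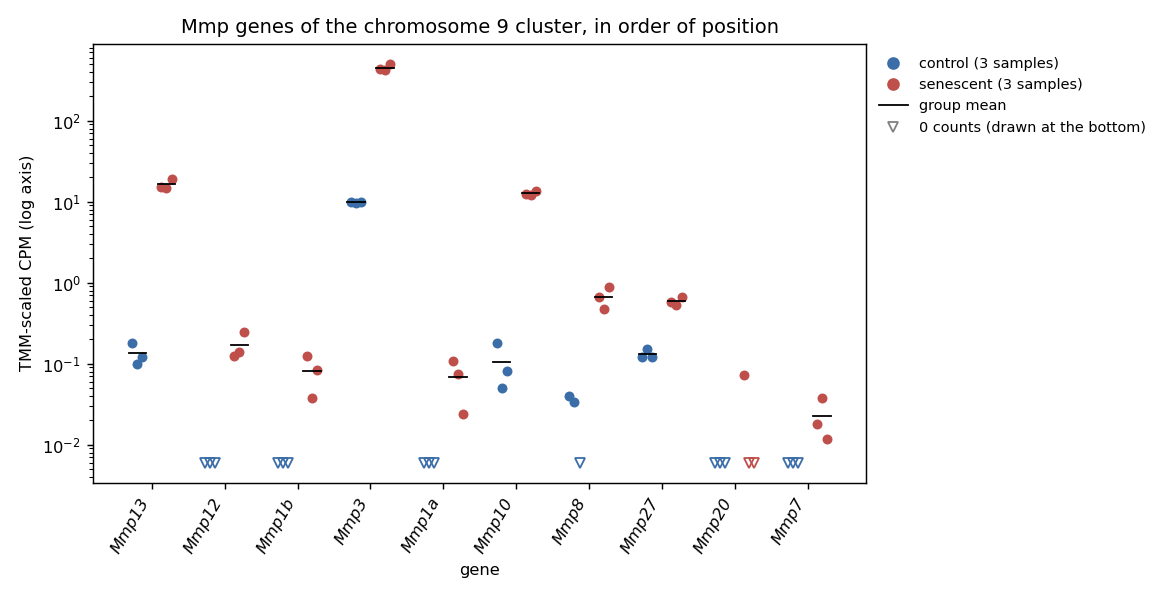
TMM-scaled CPM of the 10 Mmp genes of the chromosome 9 cluster (vertical log axis), with 1 point per library, black lines for group means where every library had counts, and open triangles at the bottom for libraries with 0 counts. Mmp3 stands above the others in both groups, Mmp13 and Mmp10 go from 0.180 CPM or less to over 12 CPM, and 5 genes have points in senescent cells only.

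The study asked about AP-1 sites, for which TGAGTCA is the consensus. The 250 bases before the annotated start of each gene were searched for it on both strands. The promoters were those of RefSeq for GRCm38.p6, the assembly that mm10 names. Promoters were found for 32 of the 46 genes (35 promoters, 3 genes with 2). The 14 genes without one were not searched. These were *Mmp2*, *Mmp9*, *Mmp16*, *Mmp17*, *Mmp19*, *Adamts4*, *Adamts5*, *Adamts6*, *Adamts7*, *Adamts8*, *Adamts10*, *Adamts15*, *Adamts16* and *Adamts19*. Members outside the cluster with large changes, such as *Mmp9* and *Adamts16*, are therefore missing from the search. TGAGTCA was in 7 of the 35, those of *Mmp13*, *Mmp12*, *Mmp1b*, *Mmp3*, *Mmp1a*, *Mmp10* and *Mmp7*, all in the cluster, beginning between 35 and 93 bases before the start, and in 0 of the 23 promoters of the other members. Of all 32851 promoters in the table, 4.46% hold it. CACGTG, the E-box bound by clock factors, was in 2 of the 35 promoters, *Adamts17* and *Mmp7*, against 6.02% of all. TATAAA was in 7 of the 12 cluster promoters and in those of *Adamts1* and *Mmp21*, against 12.4% of all promoters. The cluster promoters had a median GC content of 40.2%, against 63.6% in those of the other members and 52.4% over all promoters. The 120 bases before the start are printed on the strand of the gene for 6 of the genes with TGAGTCA, with the motif or its reverse complement in capitals. They are also printed for *Mmp8* and *Mmp27*, which were tested and do not hold it. All 8 genes lie on the plus strand, and the windows are chr9:7272394-7272513 (*Mmp13*), chr9:7347254-7347373 (*Mmp12*, the downstream of its 2 starts), chr9:7445702-7445821 (*Mmp3*), chr9:7464021-7464140 (*Mmp1a*), chr9:7502222-7502341 (*Mmp10*, whose RefSeq start lies 10 bases before that of the table), chr9:7691970-7692089 (*Mmp7*), chr9:7558309-7558428 (*Mmp8*) and chr9:7571276-7571395 (*Mmp27*). The window of *Mmp1b* reaches into an exon of that gene in GENCODE M21 and is not printed.
Mmp13: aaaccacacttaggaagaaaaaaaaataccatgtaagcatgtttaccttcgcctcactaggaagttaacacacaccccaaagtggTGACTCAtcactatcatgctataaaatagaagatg
Mmp12: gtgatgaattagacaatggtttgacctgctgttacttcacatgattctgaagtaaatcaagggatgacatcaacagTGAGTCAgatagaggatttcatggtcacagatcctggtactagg
Mmp3: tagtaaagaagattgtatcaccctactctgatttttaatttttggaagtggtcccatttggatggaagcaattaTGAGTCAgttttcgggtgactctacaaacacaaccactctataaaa
Mmp1a: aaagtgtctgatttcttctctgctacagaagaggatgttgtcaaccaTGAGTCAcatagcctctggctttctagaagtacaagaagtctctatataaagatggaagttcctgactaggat
Mmp10: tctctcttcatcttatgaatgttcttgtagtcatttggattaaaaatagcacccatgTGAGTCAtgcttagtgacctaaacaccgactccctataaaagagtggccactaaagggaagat
Mmp7: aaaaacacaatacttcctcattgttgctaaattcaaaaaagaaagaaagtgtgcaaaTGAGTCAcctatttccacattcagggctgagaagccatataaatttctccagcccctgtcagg
Mmp8: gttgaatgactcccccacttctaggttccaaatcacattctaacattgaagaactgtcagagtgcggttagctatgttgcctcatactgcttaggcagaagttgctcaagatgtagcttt
Mmp27: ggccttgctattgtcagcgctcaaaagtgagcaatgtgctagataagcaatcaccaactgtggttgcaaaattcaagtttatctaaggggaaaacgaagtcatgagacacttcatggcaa

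The match is to letters only. Of the genes that hold the motif, *Mmp3*, *Mmp10* and *Mmp13* were called higher in senescent cells, and *Mmp12*, *Mmp1a*, *Mmp1b* and *Mmp7* had too few counts for a test. *Mmp8* and *Mmp27*, which do not hold it in this window, were called higher as well. Whether the motif bears on these levels was not tested. Binding at these sites was not analysed here.

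The gelatinases, which digest denatured collagen and basement membrane collagen, moved in opposite directions from very different levels. *Mmp2* (ENSMUSG00000031740, chromosome 8 from 92827328 to 92853417), the abundant gelatinase of fibroblasts, was at 498, 513 and 506 CPM in the control replicates and 430.3, 439.6 and 391 CPM in the senescent replicates. It fell 1.20-fold without overlap between the groups, with a log2 fold change of -0.27 ± 0.06 (SE, adjusted p = 0.00497, edgeR), so the change was small beside that of most members. *Mmp9* (ENSMUSG00000017737, chromosome 2 from 164940780 to 164955850) held 0.120, 0.435 and 0.368 CPM in the control and 3.83, 4.13 and 2.62 CPM in the senescent libraries. All 3 senescent values were above all control values, with a log2 fold change of 3.48 ± 0.34 (SE, adjusted p = 5.08e-05, edgeR), and the spread within both groups was wide, control replicate 1 holding 6 counts and control replicate 2 holding 26. *Mmp9* and *Mmp12* are also made by macrophages. Of 10 macrophage markers in the table, 7 were tested and all 7 were higher in senescent cells, their summed level going from between 8.60 and 9.42 CPM to between 19.8 and 22.5 CPM. Mean levels in control and senescent cells were 0.256 and 4.52 CPM for *Lyz2*, 0.181 and 1.39 CPM for *Ptprc*, and 0.00681 and 0.505 CPM for *Itgam*. The untested *C1qb* was at 0 in the control libraries and at 1 count or fewer in the senescent libraries, and *C1qa* was at 0 in the senescent libraries. The part of such cells in the *Mmp9* and *Mmp12* values was not tested.

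Among the 7 membrane-anchored enzymes, which act at the cell surface, the most abundant, *Mmp14* and *Mmp23*, fell together with *Mmp17*, and *Mmp15*, *Mmp16* and *Mmp24* rose. *Mmp14* (ENSMUSG00000000957, chromosome 14 from 54431604 to 54441258), known for activating pro-MMP2 together with TIMP2, was at 483, 509.8 and 500.5 CPM in the control and 282, 285 and 238 CPM in the senescent replicates. It fell 1.86-fold, with a log2 fold change of -0.89 ± 0.08 (SE, adjusted p = 2.77e-05, edgeR), and senescent replicate 3 was the lowest library. *Mmp23* (ENSMUSG00000029061, chromosome 4 from 155650655 to 155653384), which lacks the hemopexin domain of the others and is held in the membrane by its propeptide, went from 76.8, 85.4 and 89.8 CPM to 12.4, 12.4 and 8.64 CPM. This was the largest decrease of an Mmp gene, 7.54-fold, with a log2 fold change of -2.92 ± 0.15 (SE, adjusted p = 1.2e-06, edgeR). *Mmp17*, anchored by a lipid, was at 2.11, 1.41 and 1.53 CPM in control against 0.794, 1.17 and 0.604 CPM in senescent libraries, lower in all senescent libraries by small counts (44 to 93), with a log2 fold change of -0.96 ± 0.27 (SE, adjusted p = 0.0131, edgeR).

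In the other direction, *Mmp24* (ENSMUSG00000027612, chromosome 2 from 155775342 to 155818366), studied mostly in neurons, had 5, 9 and 3 counts in control and 186, 307 and 254 in senescent libraries, or 0.100, 0.151 and 0.0613 CPM in control against 3.36, 3.87 and 3.01 CPM in senescent libraries. The groups were far apart, with a log2 fold change of 4.97 ± 0.25 (SE, adjusted p = 1.15e-06, edgeR). With 9 or fewer counts in every control library, *Mmp24* passed the filter through its senescent counts alone. Its test could therefore hardly come out other than higher. *Mmp24* shares 637 bases with the transcript *BC029722* on the opposite strand, which had means of 43.7 and 51.1 CPM in control and senescent cells. *Mmp16* was at 16.3, 14.3 and 12.9 CPM in control against 26.2, 26.7 and 32.0 CPM in senescent libraries, highest in senescent replicate 3, with a log2 fold change of 0.96 ± 0.12 (SE, adjusted p = 0.000157, edgeR). *Mmp15* was at 1.80, 2.16 and 2.43 CPM in control against 4.82, 5.33 and 3.55 CPM in senescent libraries, here with senescent replicate 3 as the lowest of its group, with a log2 fold change of 1.10 ± 0.18 (SE, adjusted p = 0.000952, edgeR). Both encode transmembrane enzymes related to *Mmp14* and rose by 1.95- and 2.14-fold. *Mmp25*, the lipid-anchored enzyme of leukocytes, was under the filter with 4, 4 and 2 counts in control and 13, 20 and 14 in senescent libraries, a ratio of 3.40 with a 95% exact interval from 1.70 to 7.55.

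The remaining Mmp genes differed by less than 3-fold where they could be tested. *Mmp11*, stromelysin-3, which is activated inside the cell by furin and cleaves few matrix proteins, was at 27.2, 27.9 and 28.7 CPM in the control and 17.0, 16.9 and 11.9 CPM in the senescent replicates. It fell while *Mmp3* and *Mmp10* rose, with a log2 fold change of -0.87 ± 0.14 (SE, adjusted p = 0.000704, edgeR). *Mmp19*, a widely expressed secreted enzyme, was at 70.3, 68.6 and 66.5 CPM in control against 58.5, 57.6 and 61.8 CPM in senescent libraries and had the smallest difference of any called Mmp gene, with a log2 fold change of -0.21 ± 0.06 (SE, adjusted p = 0.0115, edgeR), a call that was lost when only the library size was scaled for (adjusted p = 0.078, edgeR). It shares 789 bases with *Tmem198b* on the opposite strand, whose mean went from 42.0 to 14.2 CPM. *Mmp28*, epilysin, known from epidermis, was at 2.85, 3.41 and 2.84 CPM in control against 6.62, 7.29 and 5.94 CPM in senescent libraries, with a log2 fold change of 1.12 ± 0.12 (SE, adjusted p = 9.36e-05, edgeR). Of 10 keratinocyte markers, 5 were tested, 2 higher and 1 lower, with a summed level from 16.4 to 17.0 CPM in control and from 23.3 to 24.1 CPM in senescent libraries, *Ivl* going from 0 to a mean of 14.0 CPM and *Trp63* from 13.1 to 4.17 CPM. The part of such cells in *Mmp28* was not tested. *Mmp21*, a gene of early development, had 0, 0 and 1 and 4, 2 and 7 counts and was not tested (count ratio 9.41, 95% exact interval 1.41 to 399.9).

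Levels can be set between genes only per length, and for this the TMM-scaled counts were divided by the length that the table gives and given as CPM per kilobase. On this scale the control cells were led by *Mmp14* (192 ± 5.20) and *Mmp2* (166 ± 2.46), followed by *Mmp23* (35.9 ± 2.81), *Mmp19* (20.1 ± 0.560), *Mmp11* (10.8 ± 0.293) and *Mmp3* (5.50 ± 0.145), all as mean ± SD of 3 samples. Senescent cells were led by *Mmp3* (251 ± 25.6), then *Mmp2* (138 ± 8.45), *Mmp14* (103 ± 10.1) and *Mmp19* (17.4 ± 0.650), with *Mmp10* (7.38 ± 0.414), *Mmp13* (6.12 ± 0.948), *Mmp11* (5.94 ± 1.15) and *Mmp23* (4.76 ± 0.924) next, a run in which the values of each gene overlapped with those of the next. Summed over the 23 Mmp genes, the level was 423, 442 and 437 in the control and 540.1, 538 and 550.5 in the senescent replicates, so the sum was 1.25 times higher in senescent cells. *Mmp3* made up 1.27% of the sum in control and 46.2% in senescent cells. Without *Mmp3* the sum fell from 429 ± 9.59 to 292 ± 18.9, or to 0.681 of the control level, as *Mmp14* went from 44.2% to 19.0% of the family sum, *Mmp2* from 38.3% to 25.5% and *Mmp23* from 8.27% to 0.878%. The lengths in the table differ from the union of exons in GENCODE M21 for some members, 2597 against 5960 bases for *Mmp14*, which moves levels between genes and shares of a sum but not differences between groups within a gene. With those exon lengths *Mmp2* and not *Mmp14* led in control cells, at 149.9 ± 2.22 against 83.5 ± 2.27 CPM per kilobase.

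**Figure D3:**
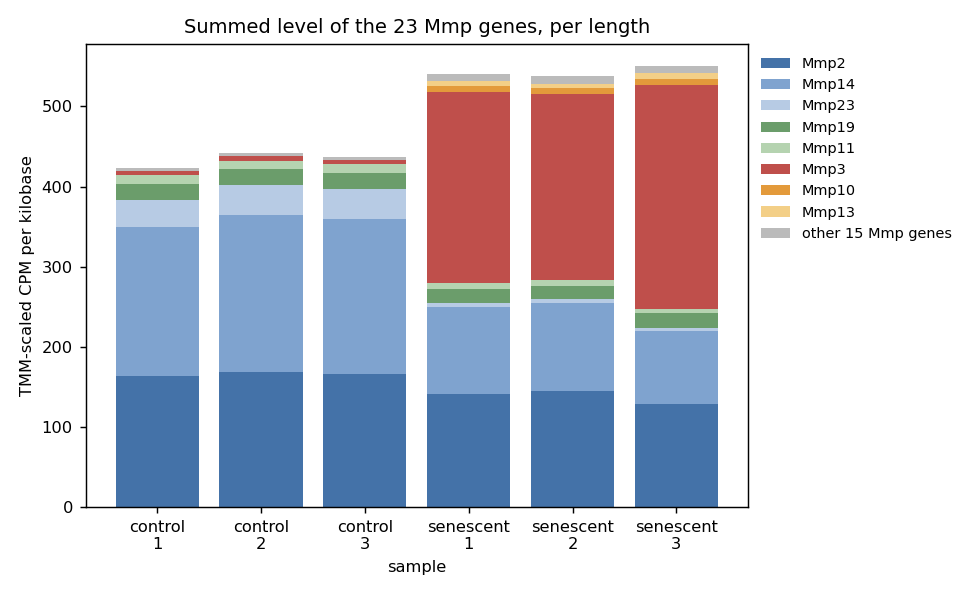
Summed level of the 23 Mmp genes in each of the 6 libraries (vertical axis, TMM-scaled CPM per kilobase, from 0), stacked by gene. Mmp2, Mmp14 and Mmp23 fill most of the control bars, and Mmp3 fills between 43.3% and 50.9% of the senescent bars, which reach 538 to 550.5 against 423 to 442 in control libraries.

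The Adamts genes were mostly lower in senescent cells, 11 of the 17 tested, with 4 higher and 2 not called. Of all tested genes, 34.1% were called lower and 36.2% higher. The median log2 fold change of the 17 was -0.73, against 0.0085 for all tested genes. *Adamts16* (ENSMUSG00000049538, chromosome 13 from 70727802 to 70841811), which has been studied in kidney and gonad development and whose substrates are not well defined, had the largest decrease of any member. It was at 67.6, 70.7 and 65.7 CPM in the control and 1.80, 1.73 and 2.07 CPM in the senescent replicates, a 36.4-fold drop, with a log2 fold change of -5.18 ± 0.09 (SE, adjusted p = 1.25e-08, edgeR). The 3 libraries of each group were close together. *Adamts20* (ENSMUSG00000022449, chromosome 15 from 94270163 to 94465418), a proteoglycan-cleaving enzyme needed for mouse coat pigment patterning, was next at 3.73, 3.56 and 3.47 CPM in control against 0.162, 0.215 and 0.261 CPM in senescent libraries, with a log2 fold change of -4.03 ± 0.17 (SE, adjusted p = 4e-07, edgeR).

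The 7 proteoglycan-cleaving Adamts genes split, 3 higher and 4 lower. *Adamts1* (ENSMUSG00000022893, chromosome 16 from 85793827 to 85803113), an aggrecan and versican cleaving enzyme, was at 67.7, 68.8 and 69.2 CPM in the control and 153, 152 and 165 CPM in the senescent replicates, with a log2 fold change of 1.19 ± 0.06 (SE, adjusted p = 8.89e-07, edgeR). Its neighbour *Adamts5* (ENSMUSG00000022894, chromosome 16 from 85858170 to 85901125), the main aggrecanase of mouse cartilage, was at 93.8, 89.5 and 89.5 CPM in control against 104, 101 and 119 CPM in senescent libraries, a rise of only 1.19-fold, with a log2 fold change of 0.25 ± 0.07 (SE, adjusted p = 0.0154, edgeR). This call was lost without control replicate 2 (adjusted p = 0.0587, edgeR) or 3 (0.0593). *Adamts4* (ENSMUSG00000006403, chromosome 1 from 171250421 to 171260637), the other classical aggrecanase, fell from 22.3, 24.9 and 24.4 CPM to 12.5, 14.6 and 11.7 CPM, with a log2 fold change of -0.88 ± 0.10 (SE, adjusted p = 0.000117, edgeR). *Adamts4* and *Adamts5* thus moved in opposite directions by less than 2-fold each. *Adamts9* (ENSMUSG00000030022, chromosome 6 from 92772699 to 92943492), a versican-cleaving enzyme of developing tissue and a close relative of *Adamts20*, was at 35.9, 35.6 and 35.4 CPM in control against 11.3, 10.5 and 10.9 CPM in senescent libraries, a 3.27-fold drop with almost no spread in either group and a log2 fold change of -1.71 ± 0.07 (SE, adjusted p = 2.89e-07, edgeR).

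On chromosome 9, the adjacent genes *Adamts15* (30899155 to 30922452) and *Adamts8* (30942562 to 30963838), both proteoglycan-cleaving, went in opposite directions. *Adamts15* fell from 3.41, 4.05 and 3.92 CPM to 1.39, 1.12 and 1.37 CPM, with a log2 fold change of -1.55 ± 0.13 (SE, adjusted p = 2.39e-05, edgeR). *Adamts8* had 0 counts in every control library and 30, 23 and 20 counts in the senescent replicates (adjusted p = 0.00164, edgeR). Its senescent level of 0.356 ± 0.163 CPM (SD, n = 3) was 6.22 times the control floor of 3 counts per library. *Adamts8* passed the filter through its senescent counts alone, so its test could hardly come out other than higher.

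The enzymes that cut cartilage oligomeric matrix protein, *Adamts7* and *Adamts12*, were both lower. *Adamts12* (ENSMUSG00000047497, chromosome 15 from 11064790 to 11346867) was at 58.6, 55.4 and 51.5 CPM in the control and 10.7, 9.75 and 11.5 CPM in the senescent replicates, a 5.17-fold drop, with a log2 fold change of -2.37 ± 0.09 (SE, adjusted p = 2.34e-07, edgeR). *Adamts7* was at 5.37, 7.31 and 5.54 CPM in control against 3.10, 3.19 and 2.58 CPM in senescent libraries, with a log2 fold change of -1.04 ± 0.15 (SE, adjusted p = 0.00045, edgeR). It shares 6045 bases with *Tbc1d2b* on the opposite strand, whose mean went from 97.3 to 60.1 CPM. The substrate gene *Comp* itself was at 72.8 ± 4.06 CPM in control cells against 32.2 ± 7.54 CPM in senescent cells (log2 fold change -1.18). Markers of cartilage cells, which ear tissue contains, moved the same way. All 10 tested of 11 in the table were lower, and their summed level went from between 7210 and 7816 CPM in control to between 609 and 692 CPM in senescent libraries, with *Col2a1*, *Acan* and *Sox9* still counted in every senescent library. The part of cartilage cells in the Adamts decreases was not tested.

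The procollagen N-proteinases, which remove the amino-terminal propeptides of fibrillar collagens, changed little. *Adamts2* (ENSMUSG00000036545, chromosome 11 from 50602084 to 50807573) was at 51.9, 52.8 and 53.6 CPM in the control and 41.0, 41.0 and 29.6 CPM in the senescent replicates, with a log2 fold change of -0.51 ± 0.12 (SE, adjusted p = 0.00646, edgeR), and at -0.36 without senescent replicate 3, the lowest library. *Adamts14* was at 3.07, 3.03 and 3.21 CPM in control against 2.40, 2.50 and 1.95 CPM in senescent libraries, with a log2 fold change of -0.44 ± 0.13 (SE, adjusted p = 0.0134, edgeR). *Adamts3* was at 1.46, 1.17 and 1.08 CPM in control against 0.830, 0.745 and 1.11 CPM in senescent libraries, with senescent replicate 3 inside the control range, and was not called (log2 fold change -0.46, standard error 0.21, adjusted p = 0.0803, edgeR). Without that library it was called lower (log2 fold change -0.65, adjusted p = 0.011, edgeR). Their substrate genes fell far more. *Col1a1* changed by -2.54, *Col1a2* by -1.87 and *Col3a1* by -2.00 on the log2 scale, with standard errors of 0.21, 0.12 and 0.08 (adjusted p = 1.79e-05, 3.86e-06 and 3.37e-07, edgeR).

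Of the other Adamts genes, *Adamts6* (ENSMUSG00000046169, chromosome 13 from 104287873 to 104494763) and *Adamts10* (ENSMUSG00000024299, chromosome 17 from 33524204 to 33553782), a pair of related enzymes that act around fibrillin microfibrils, went in opposite directions. *Adamts6* rose from 7.74, 6.46 and 7.68 CPM to 20.4, 22.3 and 22.7 CPM, 2.99-fold, with a log2 fold change of 1.58 ± 0.10 (SE, adjusted p = 3.75e-06, edgeR). *Adamts10* fell from 41.1, 47.1 and 46.5 CPM to 28.6, 31.3 and 21.5 CPM, with a log2 fold change of -0.73 ± 0.14 (SE, adjusted p = 0.00175, edgeR). No value of either gene overlapped between the groups, and senescent replicate 3 was the lowest library for *Adamts10* and the highest for *Adamts6*. *Adamts18*, known from eye and lung development, was at 0.862, 1.10 and 1.12 CPM in control against 0.541, 0.732 and 0.711 CPM in senescent libraries, with a log2 fold change of -0.62 ± 0.19 (SE, adjusted p = 0.0191, edgeR), a call lost without control replicate 2 (adjusted p = 0.0661), control replicate 3 (0.061) or senescent replicate 1 (0.0593, all edgeR). *Adamts17* held 12, 14 and 21 counts in control and 7, 19 and 11 in senescent libraries and was not called (log2 fold change -0.82, standard error 0.39, adjusted p = 0.0945, edgeR), though it was without senescent replicate 2 (0.0414). *Adamts19* had 0 counts in control and 6, 6 and 5 in senescent libraries, with a senescent mean 1.42 times the control floor. *Adamts13*, the enzyme that trims von Willebrand factor, had 0 in control and 2, 0 and 3 in senescent libraries, where a difference was not detectable at this depth.

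**Figure D4:**
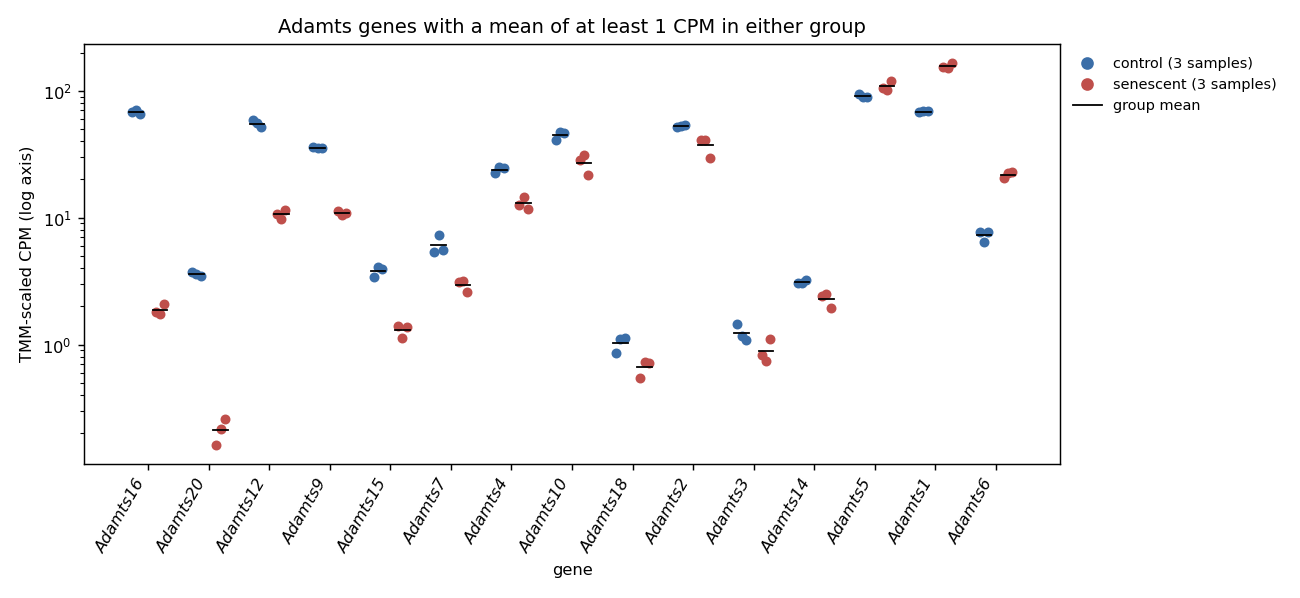
TMM-scaled CPM (vertical log axis) of the 15 Adamts genes with a mean of at least 1 CPM in either group, with 1 point per library and black lines for group means. Adamts16 falls from 68.0 to 1.87 CPM, Adamts1 and Adamts6 stand above their control values, and the points of Adamts3 overlap.

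Summed per length, the 19 Adamts genes were at 68.7, 70.1 and 68.7 in the control and 62.6, 63.1 and 64.6 in the senescent replicates (TMM-scaled CPM per kilobase), a ratio of 0.917, so the sum moved little while its makeup changed. *Adamts1* went from 18.7% to 46.5% of the family sum and *Adamts5* from 16.3% to 21.1%. *Adamts16* went from 14.4% to 0.431%, *Adamts12* from 12.8% to 2.70% and *Adamts10* from 11.9% to 7.86%. Without *Adamts1* the sum would be 0.603 of the control level.

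The inhibitors were the most abundant of the 3 families and rose. *Timp1* (ENSMUSG00000001131, chromosome X from 20870166 to 20874735), the inducible inhibitor that is paired with *Mmp3* and *Mmp9* in many tissues, was at 871, 840.1 and 882 CPM in the control and 2301, 2224 and 2191 CPM in the senescent replicates, with a log2 fold change of 1.37 ± 0.05 (SE, adjusted p = 2.41e-07, edgeR). *Timp2* (ENSMUSG00000017466, chromosome 11 from 118301069 to 118355740), which takes part in the activation of pro-MMP2 by MMP14 as well as in inhibition, was at 1501, 1476 and 1505 CPM in control against 2820.0, 2857 and 2724 CPM in senescent libraries, with a log2 fold change of 0.91 ± 0.05 (SE, adjusted p = 1.7e-06, edgeR). It rose while *Mmp14* and *Mmp2* fell. *Timp3* (ENSMUSG00000020044, chromosome 10 from 86300372 to 86349506), the inhibitor that binds to the matrix and also blocks ADAMTS4, ADAMTS5 and ADAM17, was at 5179, 4982 and 4966 CPM in control against 6218, 6258 and 7266 CPM in senescent libraries, highest in senescent replicate 3, with a log2 fold change of 0.38 ± 0.07 (SE, adjusted p = 0.00168, edgeR). *Timp4* (ENSMUSG00000030317, chromosome 6 from 115245616 to 115251849), an inhibitor of heart and brain, was scarce at 2.93, 3.28 and 3.43 CPM in control against 2.36, 2.66 and 2.39 CPM in senescent libraries, with a log2 fold change of -0.38 ± 0.11 (SE, adjusted p = 0.0175, edgeR), a call lost without control replicate 2 (adjusted p = 0.0578), control replicate 3 (0.066) or senescent replicate 1 (0.0604, all edgeR). *Timp1*, *Timp3* and *Timp4* lie inside the synapsin genes *Syn1*, *Syn3* and *Syn2* on the opposite strand, whose means stayed at or under 3.40 CPM in both groups.

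Per length, the summed Timp level was 2005, 1939 and 1992 in the control and 4080.5, 4008 and 4059.9 in the senescent replicates, 2.05 times higher in senescent cells. *Timp1* held 49.2% of it in control and 62.3% in senescent cells, *Timp3* 31.3% and 20.0%, and *Timp2* 19.4% and 17.8%. The ratio of the summed Mmp to the summed Timp level was 0.211, 0.228 and 0.219 in the control and 0.132, 0.134 and 0.136 in the senescent replicates. RNA of the inhibitors thus exceeded that of the Mmp genes in every library, by more in senescent cells, and the groups did not overlap. The ratio is of RNA levels and not of protein or of activity.

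**Figure D5:**
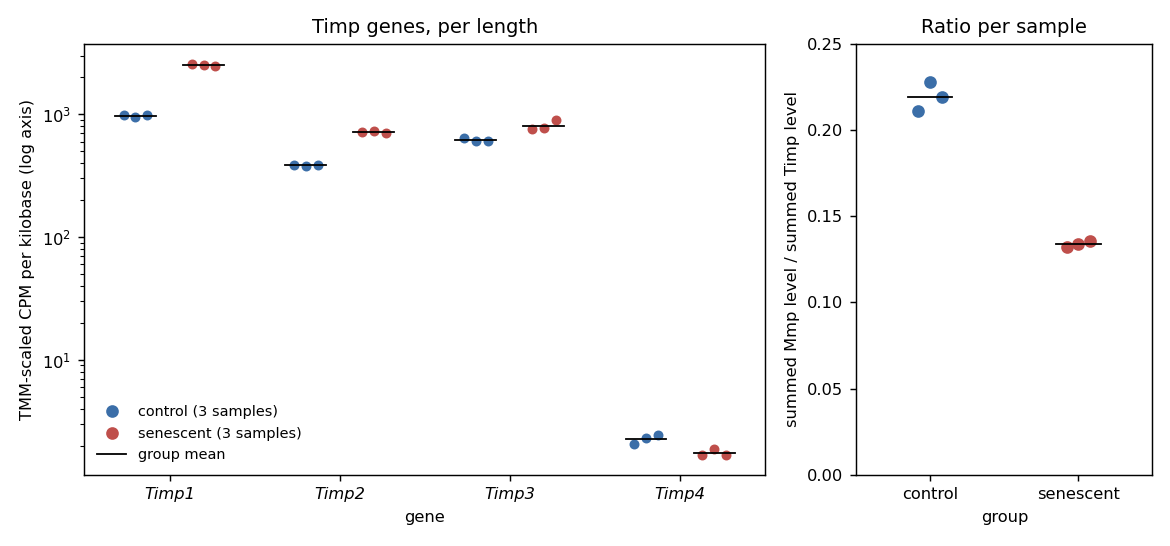
Left, level of the 4 Timp genes in each library (vertical log axis, TMM-scaled CPM per kilobase), with black lines for group means. Right, ratio of the summed Mmp level to the summed Timp level per library, on an axis from 0, which lies between 0.211 and 0.228 in control and between 0.132 and 0.136 in senescent cells.

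Genes outside the family were read from 6 lists, of activators, other inhibitors and clearance receptors, ADAMTS-like genes, Adam proteinases, matrix substrates, and inducing cytokines and transcription factors. The counts of called genes in each list stand beside the 70.3% called of all tested genes, 36.2% higher and 34.1% lower. No list was tested as a set. Among 12 activators and their receptors, 9 were tested, 5 higher and 2 lower. The smallest p was that of *Pcsk5*, a proprotein convertase, at 19.0 ± 2.15 CPM in control cells against 91.3 ± 4.52 CPM in senescent cells (log2 fold change 2.26, adjusted p = 3.68e-07, edgeR). The plasminogen activators *Plat*, at 49.0 ± 0.468 CPM in control cells against 87.1 ± 3.03 CPM in senescent cells, and *Plau*, at 50.2 ± 0.729 CPM in control cells against 85.6 ± 1.23 CPM in senescent cells, followed. They rose by 0.83 and 0.77 on the log2 scale (adjusted p = 4.69e-06 and 5.14e-06, edgeR), while *Plg*, which encodes the plasminogen they act on, had at most 2 counts in any library. Among 11 other inhibitors and clearance receptors, 9 were tested, 5 higher and 2 lower. *Serpine2*, a serine proteinase inhibitor, was at 199 ± 0.406 CPM in control cells against 482 ± 14.4 CPM in senescent cells, and *A2m*, a proteinase trap, at 15.2 ± 1.31 CPM in control cells against 43.4 ± 3.22 CPM in senescent cells. Their log2 fold changes were 1.28 and 1.51 (adjusted p = 3.37e-07 and 3.17e-06, edgeR).

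Of the 7 ADAMTS-like genes, which keep the matrix-binding repeats without the proteinase, 6 were tested, 2 higher and 2 lower, with *Adamtsl1* at -1.10, *Adamtsl4* at -1.70 and *Adamtsl5* at 1.34 on the log2 scale (adjusted p = 6.96e-06, 6.83e-05 and 5.38e-05, edgeR). Of the 9 catalytically active Adam genes, which shed membrane proteins, 8 were tested, 1 higher and 4 lower. *Adam17*, the sheddase of tumor necrosis factor, fell from 134 to 69.6 CPM (log2 fold change -0.95) and *Adam8* changed by -1.29, while *Adam19* rose by 1.15 (adjusted p = 2.88e-06, 1.35e-05 and 5.85e-07, edgeR). Of the 22 matrix substrates, 21 were tested, 12 lower and 7 higher. *Acan*, the aggrecan cut by *Adamts1*, *Adamts4* and *Adamts5*, changed by -3.82 and *Fbn2*, fibrillin-2, by -3.89, while *Dcn*, decorin, rose by 3.50, with standard errors of 0.06, 0.06 and 0.08 (adjusted p = 8.85e-09, 1.02e-08 and 3.18e-08, edgeR). Of the 15 cytokines and transcription factors known to induce Mmp genes, 11 were tested, 5 higher and 4 lower. *Fosl1*, an AP-1 subunit, was at 22.8 ± 2.56 CPM in control cells against 87.1 ± 17.3 CPM in senescent cells, and *Fosl2* at 240.5 ± 1.10 CPM in control cells against 351 ± 7.73 CPM in senescent cells, both higher (adjusted p = 1.69e-05 and 3.08e-05, edgeR). *Ets2* fell by 1.78 on the log2 scale (adjusted p = 6.15e-08, edgeR). The cytokine genes *Il1a*, *Il1b*, *Tnf* and *Osm* had 0 counts in every control library and at most 7 in any senescent library.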

How the data were processed

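Per the labels and the study's methods, the authors made stranded libraries from 200 ng of RNA, aligned the read pairs with STAR to mm10 and counted them per gene with Subread (MAPRSeq pipeline); the deposited counts are raw. The strand setting of the counting is not given in the sources used here, so values of genes that overlap on opposite strands are uncertain, *Adamts4* among them. From the counts of all 43346 genes, edgeR's filterByExpr kept 17589, libraries were scaled by TMM, and the groups were compared by the robust quasi-likelihood test (edgeR 4.0.16, R 4.3.3), two-sided, with the group as the only term and Benjamini-Hochberg adjustment. The fit was tested on simulated data. Levels per length use the length in the count table. Motifs were searched in the RefSeq promoter table of GRCm38.p6 without chromosome 18. Of the 35 member promoters, 28 continue into a GENCODE M21 transcript of the gene. The members, gene lists and tests were chosen with earlier results of these data known. All members are accounted for, those with a mean of at least 1 CPM in either group in full, and from each pathway list the 3 genes with the smallest p, of which 1 is not reported here. *Comp*, *Col1a1*, *Col1a2*, *Col3a1*, *Plg* and the neighbours of the cluster are named outside it, after their values had been seen. Alternatives were RLE scaling, library size alone, other filters, edgeR's exact test, DESeq2 1.42.0, a replicate term and leaving out each library or the highest member of a sum.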

Additional observations from a re-analysis of the deposited data

How the results depend on the processing

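Over 13 alternative settings, 472 recomputed values for single members gave 461 with the same direction and call, 9 that lost the call, 2 that gained it and 0 that turned direction. The 6 genes concerned were *Adamts3*, *Adamts5*, *Adamts17*, *Adamts18* and *Timp4*, each when a library was left out, and *Mmp19*, which lost its call with library size alone (adjusted p = 0.078, edgeR); the cause was not tested. Leaving out each library in turn, between 17 and 18 members were higher and between 16 and 19 lower, and between 13 and 15 and between 6 and 9 passed the threshold of the study's methods. When at least 10 counts were required in every library, 28 members could be tested and 10 were higher, 7 of them past the methods threshold, since genes near 0 in control cells drop out by construction. Without a filter all 46 were tested, 22 higher and 18 lower.

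The summed levels are less firm than the single genes. With library size alone, the sums in senescent over control cells were 1.32 for Mmp, 0.968 for Adamts and 2.16 for Timp genes. With exon lengths of GENCODE M21, an alternative chosen after seeing the data, they were 1.52 for Mmp and 0.953 for Adamts genes, and the ratio of the Mmp to the Timp sum was 0.156 in control and 0.116 in senescent cells. Without *Mmp3* the Mmp sum was 0.681 of the control level, lower in place of higher, and its ratio to the Timp sum in senescent cells was 0.0721. Without *Adamts1* the Adamts sum was 0.603. Without *Timp1* the Timp sum was 1.52, and the ratio was 0.432 in control and 0.355 in senescent cells. Why the sums moved with the scaling was not tested.

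Replicate numbers did not pair the samples: deviations of samples with the same number correlated at -0.145, 0.135 and -0.120. With a replicate block, 11624 in place of 12365 genes were called, and 17 members were higher and 18 lower as before. Depth limits the 9 members under the filter, of which no library held more than 21 counts.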
